A study of Mus musculus with 12 samples.

Results

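Interleukin-33 and 9 genes that group 2 innate lymphoid cells (ILC2s) are known for were read out of RNA sequencing of the stromal vascular fraction (SVF), the mixed cells that remain of adipose tissue once fat cells are removed. The 10 genes, taken by name out of the 55536 genes in the deposited tables, were Il33, Il1rl1, Gata3, Rora, Il7r, Areg, Il5, Il13, Icos and Klrg1. Each of the 12 libraries came from the inguinal white adipose tissue (iWAT) of 1 male mouse kept at room temperature. Controls were 2 months (n = 4) or 12 months of age (n = 4), and Pdgfrβ-KO mice were 12 months of age (n = 4). The labels call the controls wild type, whereas the methods describe Sma-CreERT2 mice with a Rosa26-tdTomato or mTmG reporter on a mixed C57BL6/J-129SV background. Pdgfrβ-KO mice carry the same Cre and reporter with Pdgfrβ fl/fl, the floxed gene of a growth factor receptor of perivascular cells. Cre is driven by the smooth muscle actin promoter and acts after tamoxifen, given on 2 consecutive days. It therefore reaches smooth muscle and other Sma+ cells of every organ, but only a portion of the cells in the SVF. Whether the sequenced controls also received tamoxifen is not given in the sources used here. The same 4 libraries of 12-month controls serve both comparisons, and they were sequenced for the comparison of ages, so a batch of the Pdgfrβ-KO libraries and the genotype cannot be told apart.

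IL-33 is an alarmin, a cytokine stored in the nucleus of stromal, endothelial and epithelial cells and released when they are stressed or damaged. It binds ST2, the product of Il1rl1, which pairs with the shared receptor chain Il1rap and signals through Myd88. In adipose tissue ST2 is carried by ILC2s, by regulatory T cells and by mast cells, and ILC2s answer IL-33 with IL-5, IL-13 and amphiregulin. ILC2s depend on the transcription factors Gata3 and Rora and on the receptor of IL-7, and they are a known support of beige fat.

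In GRCm38, with positions counted from 1, Il33 lies at chr19:29925114-29960718 (+ strand), Il1rl1 at chr1:40429570-40465415 (+), Gata3 at chr2:9857078-9890034 (-) and Rora at chr9:68653786-69388246 (+), and Il13 and Il5 lie close together on chromosome 11. Each count takes in the whole gene. Sequences just upstream of the start sites show the promoters of the ligand, its receptor and Il13, which bear on the ligand the study followed, on the receptor that changed with age, and on a cytokine that Gata3 is known to drive. RefSeq promoter windows (GRCm38.p6) were found for 8 of the 10 genes, with 10 windows in all, and each was read over the 250 bases before the start, from 5′ to 3′ on the strand of the gene. Capitals mark GATA letters (AGATAA or TGATAA) or the ROR letters (AGGTCA), on either strand.
Il33 start 1, chr19:29924863-29925112, + strand: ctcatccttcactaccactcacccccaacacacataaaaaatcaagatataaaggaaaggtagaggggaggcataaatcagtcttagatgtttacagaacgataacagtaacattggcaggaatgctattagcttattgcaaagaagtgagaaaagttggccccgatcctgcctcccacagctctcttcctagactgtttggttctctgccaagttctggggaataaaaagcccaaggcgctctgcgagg
Il33 start 2, chr19:29945540-29945789, + strand: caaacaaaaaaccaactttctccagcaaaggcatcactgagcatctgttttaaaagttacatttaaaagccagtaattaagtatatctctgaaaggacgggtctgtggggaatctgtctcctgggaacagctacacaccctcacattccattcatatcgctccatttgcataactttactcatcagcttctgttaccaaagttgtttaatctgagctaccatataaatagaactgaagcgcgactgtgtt
Il1rl1 start 1, chr1:40429320-40429569, + strand: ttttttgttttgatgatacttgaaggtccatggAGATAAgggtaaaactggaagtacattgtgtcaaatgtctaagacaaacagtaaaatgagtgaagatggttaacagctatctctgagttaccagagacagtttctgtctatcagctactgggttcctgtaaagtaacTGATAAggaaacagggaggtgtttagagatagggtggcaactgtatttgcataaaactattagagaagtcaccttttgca
Il1rl1 start 2, chr1:40439379-40439628, + strand: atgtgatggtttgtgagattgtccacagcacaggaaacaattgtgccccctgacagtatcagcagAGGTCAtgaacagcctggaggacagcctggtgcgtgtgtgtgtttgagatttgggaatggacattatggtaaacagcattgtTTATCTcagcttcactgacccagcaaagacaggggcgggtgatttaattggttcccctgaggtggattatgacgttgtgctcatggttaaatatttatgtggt
Il13, chr11:53634703-53634952, - strand: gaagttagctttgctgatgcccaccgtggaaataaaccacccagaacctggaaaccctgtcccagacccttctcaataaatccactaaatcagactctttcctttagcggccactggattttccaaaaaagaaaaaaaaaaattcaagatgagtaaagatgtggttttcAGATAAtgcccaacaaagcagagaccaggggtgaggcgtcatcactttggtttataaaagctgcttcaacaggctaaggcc

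The letters AGATAA or TGATAA stood in 3 of the 10 windows, both of Il1rl1 and the 1 of Il13. Of all 32851 windows of this length, 16.6% held them. The first Il1rl1 window held 2 such matches and the second held 1, together with 1 ROR match (14% of all windows). None of these matches overlapped another. Neither Il33 window held these GATA or ROR letters. Other spellings of a GATA site, such as AGATAG, were not searched and stand unmarked. A match here is a description of the letters and not a bound site.

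Values are normalized counts, read counts scaled by one factor per library and rounded. Deposited totals were 19.6 to 21.9 M per library. The counts behind them were estimated at 21.4 to 24.8 M in 2-month controls, 21.0 to 29.0 M in 12-month controls and 13.8 to 20 M in Pdgfrβ-KO libraries, so the Pdgfrβ-KO libraries were the shallowest, except that replicate 4 of this group could hold 2 times its estimate. Pdgfrb itself was 2399 to 4380 in 12-month controls and 1707 to 2145 in Pdgfrβ-KO mice. These groups did not overlap, and Pdgfrb fell by 0.77 on the log2 scale (SE 0.17, adjusted p = 0.0160 in limma, n = 4 per group). With age Pdgfrb was 2349 to 2536 in 2-month controls, a log2 difference of 0.40 (adjusted p = 0.0680), which was 0.54 (adjusted p = 0.0141) without 12-month replicate 4 and 0.25 (0.119) without 12-month replicate 2.

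Per kilobase of exon, which allows levels of different genes to be compared, Il7r was the most abundant of the 10 genes in each group. It encodes the IL-7 receptor chain that T cells share with innate lymphoid cells, and its mean normalized count per kb was 457 ± 80.7 (SD, n = 4) in 2-month controls, 418 ± 127 in 12-month controls and 346 ± 119 in Pdgfrβ-KO mice. Il33 stood at 102 ± 26.7, 131 ± 19.7 and 193 ± 48.3 per kb in the same order, which placed it below Il7r, Gata3 and Icos in 2-month controls and next after Il7r in both 12-month groups. In 12-month controls the next genes in this order were Icos (117 ± 27.4 per kb) and Rora (109 ± 5.71 per kb), and the 3 means differed from their neighbours by less than the larger SD. Il1rl1 was 26.9 ± 7.79, 53.3 ± 12.7 and 61.97 ± 19.3 per kb, lower than Il33 in each group. The type 2 cytokines lay lowest, with Il13 at 6.85 ± 1.04, 13.9 ± 4.997 and 8.51 ± 1.84 per kb and Il5 at 0.813 ± 0.325, 1.46 ± 0.325 and 0.488 ± 0.976 per kb.

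**Figure D1:**
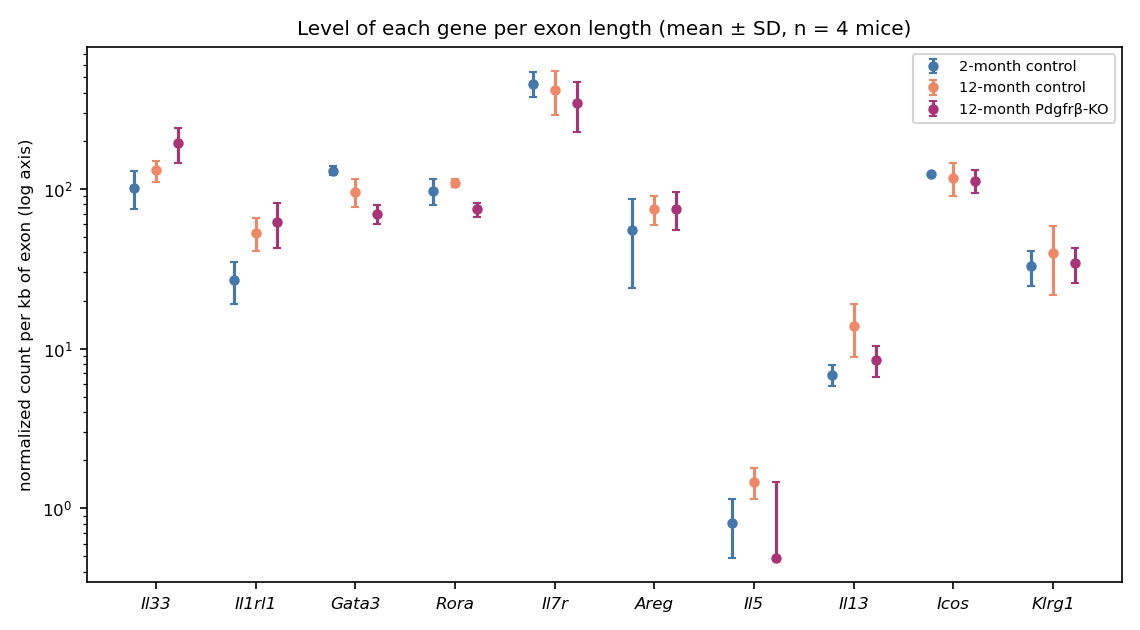
Mean normalized count per kb of exon (log axis) of each of the 10 genes in 2-month controls, 12-month controls and 12-month Pdgfrβ-KO mice, with SD over 4 mice (for Il5 in Pdgfrβ-KO mice the SD exceeds the mean and only the upper whisker is drawn). Il7r is highest and Il5 lowest in each group, and Il33 stands at 102, 131 and 193.

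Transcripts that mark ILC2s most narrowly were scarce. Nmur1, the neuromedin receptor of ILC2s, had 0 to 4 normalized counts in the 12 libraries, and Il5 had 0 to 3. Ptgdr2, which encodes the prostaglandin D2 receptor CRTH2, had 4 to 22. Transcripts of T cells were plentiful beside them. Cd3e, a chain of the T cell receptor complex, ranged from 669 to 1279 over the 12 libraries. Gata3, Rora, Il7r, Icos, Klrg1 and Il1rl1 are also made by T cells, and no value here assigns their reads to ILC2s. In a bulk fraction, fewer cells of a type and less RNA per cell cannot be told apart.

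**Figure D2:**
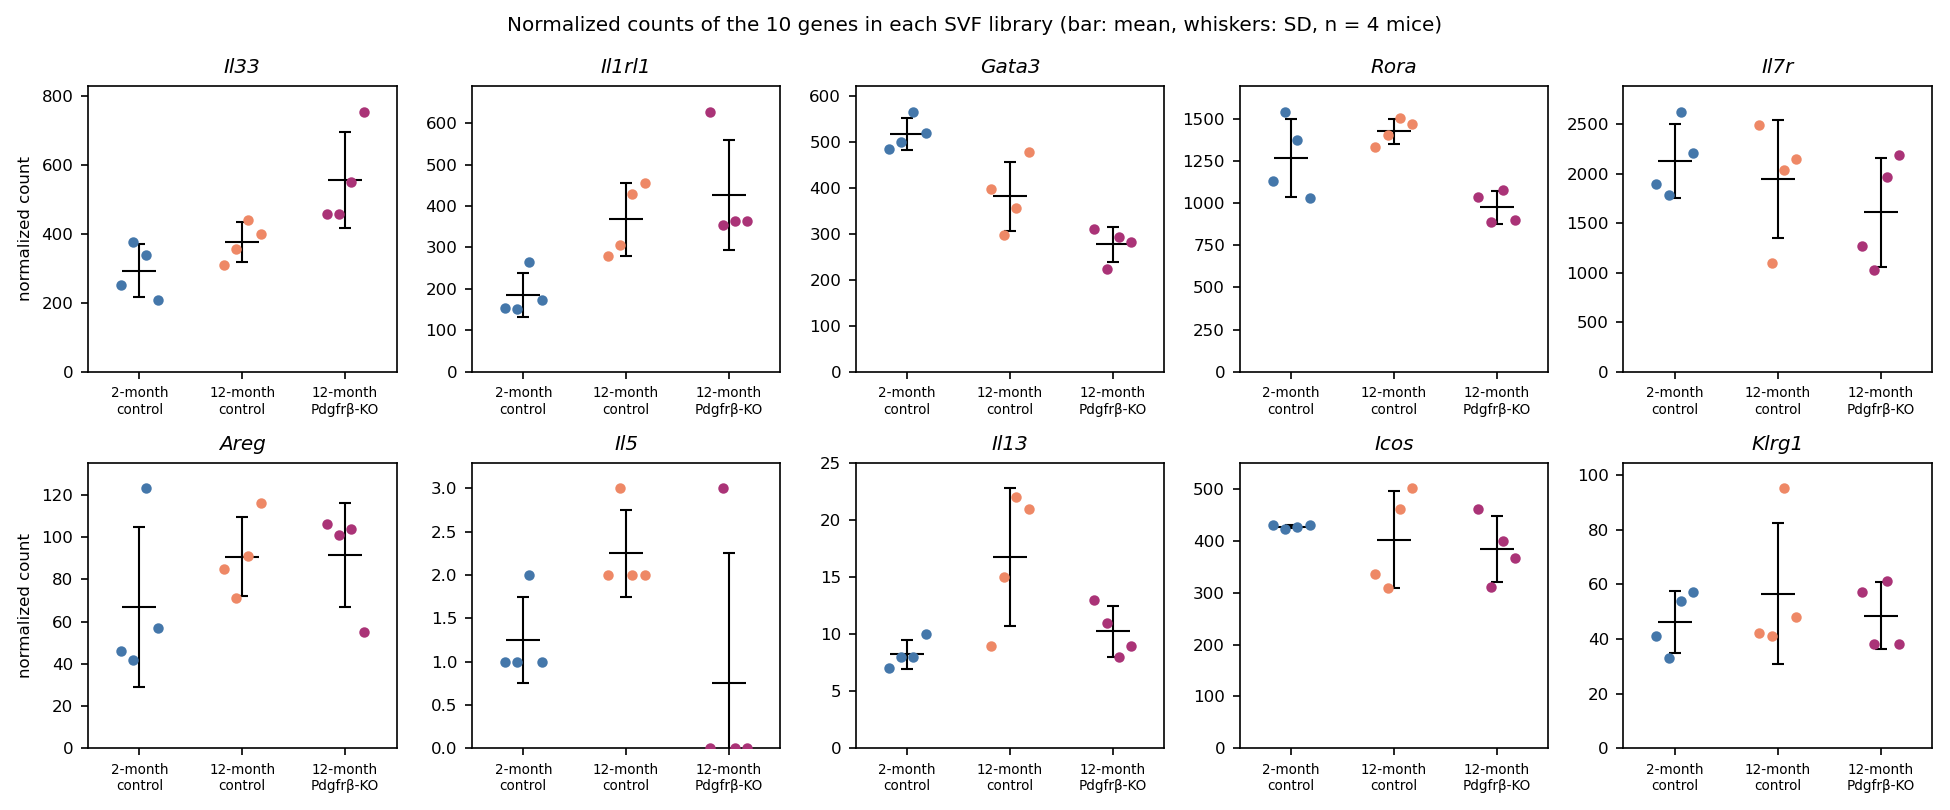
Normalized count (linear axis from 0) of each of the 10 genes in each library, by group, with the mean as a bar and SD as whiskers (n = 4 mice). Il1rl1 is 151 to 265 in 2-month and 280 to 456 in 12-month controls, Rora is 887 to 1079 in Pdgfrβ-KO mice against 1332 to 1502 in their controls, and Il33 is 459 to 755 against 309 to 441.

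The first comparison asked how the SVF of 12-month controls differed from that of 2-month controls. Il1rl1, the IL-33 receptor, rose 1.99-fold, and Gata3, the transcription factor that defines ILC2s and T helper 2 cells, fell to 0.730 of its younger level. Il33 itself was 1.305-fold higher in the mean of log values and did not pass the test. Of the 9 genes tested, 1 passed an adjusted p of 0.05 as higher, 1 as lower and 7 did not pass, against 22.7% of the 16399 genes tested called in either direction (11.3% higher and 11.4% lower). The groups did not overlap for 2 of the 9, against 24.8% of all genes tested (12.3% higher and 12.5% lower), so the share of these genes that changed with age was near the background. At an unadjusted p under 0.05 there were 3 of 9, Il1rl1, Gata3 and Il13, against 37.0% of all genes. Of these, Il13 entered the test mainly through the 12-month controls, where it was high. The median log2 fold change of the 9 genes was 0.225, beside -0.0079 over all genes.

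Il33 was 252, 377, 338 and 209 in the 2-month controls and 309, 358, 441 and 401 in the 12-month controls. The groups overlapped, with 2 of the 12-month libraries above every 2-month library. Its log2 fold change was 0.38 (SE 0.18, 95% confidence interval -0.0080 to 0.78, adjusted p = 0.142 in limma), and an exact permutation test gave p = 0.171 (two-sided, 70 regroupings, smallest possible 0.0286). Without 1 library the log2 difference ran from 0.23 (without 2-month replicate 4) to 0.52, and it did not pass in any of these fits.

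Il1rl1 was 154, 151, 265 and 173 in 2-month controls. In 12-month controls it was 280, 307, 428 and 456, so that every older library lay above every younger one. The rise was 1.99-fold (log2 0.99, SE 0.20, 95% interval 0.55 to 1.43, adjusted p = 0.00535 in limma, n = 4 per group), and it passed under each of the 18 alternatives tried. Il1rl1 encodes a membrane receptor and a soluble decoy of IL-33 from separate starts, which a count per gene does not tell apart. Marker lists of other cells that carry ST2 stood as follows in the same libraries. The summed level of 10 mast cell and basophil genes was 3807 to 4557 in 2-month and 5836 to 9982 in 12-month controls. Of the 9 tested genes of that list 7 rose, beside 11.3% of all genes tested. Mcpt4, a mast cell protease, rose by 1.75 on the log2 scale (SE 0.19, adjusted p = 0.0001). Foxp3, the factor that defines regulatory T cells, was 224 to 270 in 2-month and 163 to 307 in 12-month controls. The part of mast cells in the rise of Il1rl1 was not tested.

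Gata3 was 486, 500, 566 and 520 in 2-month controls. It was 398, 299, 356 and 478 in 12-month controls, and no older library reached the lowest younger one. It fell by 0.45 on the log2 scale (SE 0.13, adjusted p = 0.0296 in limma). This call was not firm, because it was lost in 6 of the 18 alternatives, namely in limma without its trend and robust estimation (adjusted p = 0.0624) and when any of 5 libraries was left out, 2-month replicates 2 to 4 and 12-month replicates 2 and 3 (0.0541 to 0.0864). Gm13256, an antisense gene that overlaps Gata3, had 0 to 13 normalized counts. Cd4, which marks helper T cells and also fell, was 2005 to 2174 in 2-month and 743 to 1508 in 12-month controls (log2 -0.80, SE 0.18, adjusted p = 0.00805). Of the 15 genes of T and regulatory T cells, 0 were higher and 2 lower (Cd4 and Cd5) in limma, beside 11.3% and 11.4% of all genes tested. An unadjusted p under 0.05 was found for 3 of them, beside 37.0% of all genes. The summed level of the T cell list was 20252 to 25951 in 2-month and 13728 to 25988 in 12-month controls, and its part in the fall of Gata3 was not tested.

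Rora, a nuclear receptor needed for ILC2 development, was 1027 to 1539 in 2-month controls and 1332 to 1502 in 12-month controls, a log2 difference of 0.19 (adjusted p = 0.275) that ran from 0.092 to 0.29 without 2-month replicate 4 or 2. The surface receptors Il7r, Icos and Klrg1 did not pass either. Il7r had a log2 difference of -0.18 (adjusted p = 0.582) and Icos, a costimulatory receptor, -0.12 (0.587), which ran from -0.23 to -0.0021 without 12-month replicate 4 or 2. Klrg1, an inhibitory receptor of mature ILC2s and effector T cells, had 0.22 (0.602), and its 12-month values of 42, 41, 95 and 48 rested on replicate 3, without which the difference was -0.052.

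Among the products of ILC2s, Il13 was 7, 8, 8 and 10 in 2-month controls and 9, 15, 22 and 21 in 12-month controls. Of the 4 older libraries 3 exceeded every younger one, with estimated reads of 7 to 32 per library behind these values. Of the 4 libraries in which Il13 reached the filter's value of 10, 3 were 12-month controls. The log2 difference was 0.88 (SE 0.34, adjusted p = 0.0837 in limma), and without 12-month replicate 1 it was 1.13 (adjusted p = 0.0308). Without 2-month replicate 1, 2 or 3 it was 0.81 to 0.87 (adjusted p = 0.145 to 0.148). Without 2-month replicate 4 or 12-month replicate 2, 3 or 4, Il13 fell below the filter and had no test. It entered the test mainly through the group where it was high, so these p carry little weight. Areg, which encodes the epidermal growth factor relative amphiregulin, was 46, 42, 123 and 57 in 2-month and 85, 71, 91 and 116 in 12-month controls. Its log2 difference of 0.55 (SE 0.30, adjusted p = 0.205) became 0.88 (adjusted p = 0.0208) without 2-month replicate 3, the library at 123. Il5, the eosinophil growth factor, was 1, 1, 2 and 1 in 2-month and 2, 3, 2 and 2 in 12-month controls. All these values lie at or under 3 counts, so Il5 fell below the filter, was not tested and is given no fold.

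**Figure D3:**
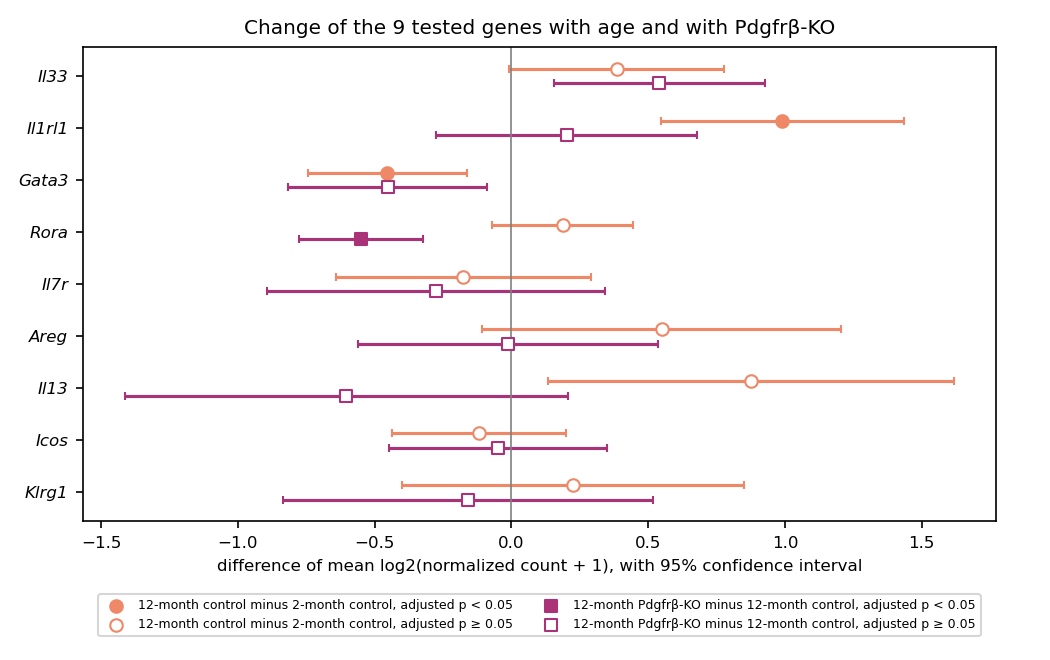
Difference of mean log2(normalized count + 1) with its 95% confidence interval for the 9 tested genes, 12-month minus 2-month controls (circles) and Pdgfrβ-KO minus control at 12 months (squares), filled where the adjusted p in limma was under 0.05. Filled symbols are Il1rl1 at 0.99 and Gata3 at -0.45 with age, and Rora at -0.55 with Pdgfrβ-KO, while Il33 stands at 0.38 and 0.54 with open symbols.

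The second comparison asked what loss of Pdgfrβ in Sma+ cells did at 12 months. Rora fell, Il33 was higher in each Pdgfrβ-KO library than in any control without passing the adjusted threshold, and Gata3 was lower in 3 of 4. Of the 9 genes tested, 0 passed an adjusted p of 0.05 as higher and 1 as lower in limma, against 9.42% of the 16344 genes tested (4.96% higher and 4.46% lower). At an unadjusted p under 0.05 there were 3 of 9, Rora, Il33 and Gata3, against 26.8% of all genes. The groups did not overlap for 2 of 9, against 17.1% of all genes tested (9.05% higher and 8.06% lower). The share of these genes called or separated was thus near the background. Their median log2 fold change was -0.159, beside -0.0134 over all genes.

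Il33 was 309, 358, 441 and 401 in the 12-month controls and 460, 459, 551 and 755 in the Pdgfrβ-KO mice. Its mean was 377 ± 56.7 against 556 ± 139 (SD, n = 4 per group). No Pdgfrβ-KO library lay at or below a control, though the lowest Pdgfrβ-KO value of 459 and the highest control value of 441 were close. The difference was 1.45-fold (log2 0.54, SE 0.18, 95% interval 0.15 to 0.93), with an unadjusted p of 0.0104 and an adjusted p of 0.0784 in limma. The exact permutation test of Il33 alone gave p = 0.0286 (two-sided), the smallest value that 70 regroupings allow. Il33 was tested alone because the paper singled it out in RNA sequencing of these same groups. This p is therefore drawn from the data that chose the gene and is not independent support. Without control replicate 1 or 2 the exact p was 0.0857, and without Pdgfrβ-KO replicate 3 or 4 it was 0.0571. The groups still did not overlap in these cases. With unequal groups, regroupings of the opposite sign can be as large, so separated groups need not reach the smallest p of 0.0286. Over the 18 alternatives the log2 difference was 0.38 to 0.62 and the adjusted p 0.0235 to 0.191, and without replicate 4, the Pdgfrβ-KO library at 755, the log2 difference was 0.38. In order of level the 3 groups ran from 2-month control through 12-month control to Pdgfrβ-KO, where the first pair overlapped and the second pair did not. The Pdgfrβ-KO mice were not tested against the 2-month controls.

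Cells that are known to make IL-33 were read through their markers. Over all genes tested with Pdgfrβ-KO, 4.96% were higher and 4.46% lower. The list of 16 genes of fibroblastic progenitors, a known stromal source in fat, summed to 111096 to 140383 in 12-month controls and 92363 to 104604 in Pdgfrβ-KO mice, with 0 genes higher and 5 lower of 16 tested. Pi16, a marker of interstitial progenitors, fell by 1.13 on the log2 scale (SE 0.17, adjusted p = 0.00247), whereas Pdgfra was 3726 to 4844 in controls and 4039 to 6356 in Pdgfrβ-KO mice (log2 0.18, adjusted p = 0.461). Of the 7 mesothelial genes only Krt19 could be tested, and Msln and Upk3b, which define mesothelium, were 2 to 10 and 1 to 4 in controls and 0 to 3 each in Pdgfrβ-KO mice. Genes of B cells and lymph node stroma, of which the latter is rich in IL-33, summed to 13697 to 20108 in 12-month controls and 15635 to 28579 in Pdgfrβ-KO mice. Of 9 tested genes of that list 2 rose, Glycam1 and Madcam1, which mark the venules through which lymphocytes enter nodes. In all 12 libraries Ccl21a was at 0, which by itself does not show that this stroma was absent. The Pdgfrβ-KO library with the highest sum, replicate 4, was also the one with the highest Il33. Endothelial genes summed to 44997 to 68086 in controls and 41478 to 59765 in Pdgfrβ-KO mice. Of 11 tested, 2 were higher (Lyve1 and Plvap) and 1 lower (Tek). Cdh5 and Prox1 were lower without overlap and did not pass (log2 -0.65 and -0.63, adjusted p = 0.0568 and 0.0775 in limma). Counted by sign alone, 4 of the 11 were up and 7 down. The keratins Krt5 and Krt14 mark skin and glandular epithelium, another source of IL-33. They were at 0 in the 4 Pdgfrβ-KO libraries and reached 319 and 532 in controls. Neither was at 10 or more in every control, so neither was tested. The list of 9 epithelial genes summed to 182 to 1929 in 12-month controls and 195 to 269 in Pdgfrβ-KO mice. The part of each of these cell types in the difference of Il33 was not tested.

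Il1rl1 was 280, 307, 428 and 456 in 12-month controls and 627, 355, 364 and 363 in Pdgfrβ-KO mice. The groups overlapped, and 1 library, Pdgfrβ-KO replicate 1, stood above all others. The log2 difference was 0.20 (SE 0.22, 95% interval -0.28 to 0.68, adjusted p = 0.590 in limma), and it was between 0.0029 (without that library) and 0.32 (without control replicate 4) over the 18 alternatives.

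Rora was 1332, 1402, 1502 and 1465 in 12-month controls. It was 1038, 887, 1079 and 897 in Pdgfrβ-KO mice, with every Pdgfrβ-KO library below every control. The gene fell by 0.55 on the log2 scale, to 0.683 of the control level (SE 0.10, 95% interval -0.78 to -0.32, adjusted p = 0.00820 in limma), and passed under each of the 18 alternatives. Rora is also made by stromal and T cells, and 5 genes of fibroblastic progenitors fell in the same libraries while 0 of 15 genes of T and regulatory T cells passed in either direction (0 also at an unadjusted p under 0.05). Their part in the fall of Rora was not tested.

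Gata3 was 398, 299, 356 and 478 in controls and 311, 223, 293 and 283 in Pdgfrβ-KO mice. Of the 4 Pdgfrβ-KO libraries 3 lay below the lowest control and the groups overlapped at the fourth. Its log2 difference was -0.45 (SE 0.17, 95% interval -0.82 to -0.09), with an unadjusted p of 0.0190 and an adjusted p of 0.110 in limma. Nfil3, a transcription factor required early in the innate lymphoid lineage, was 1930 to 2221 in controls and 1294 to 1564 in Pdgfrβ-KO mice. It fell by 0.56 on the log2 scale (SE 0.10, adjusted p = 0.00647). Id2, the partner factor that marks all innate lymphoid cells, was 2150 to 2400 in controls and 1457 to 2025 in Pdgfrβ-KO mice, without overlap, and did not pass (log2 -0.31, adjusted p = 0.128).

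The surface receptors and products of ILC2s did not pass in Pdgfrβ-KO mice. Il7r was 1104 to 2494 in controls and 1028 to 2189 in Pdgfrβ-KO mice (log2 -0.28, 95% interval -0.90 to 0.34, adjusted p = 0.568). Without 1 library this difference ran from -0.53 (without control replicate 2) to -0.082 (without Pdgfrβ-KO replicate 2). Icos (log2 -0.05, interval -0.45 to 0.35) and Klrg1 (log2 -0.16, interval -0.83 to 0.52) also overlapped between groups. Areg was 85, 71, 91 and 116 in controls and 106, 101, 104 and 55 in Pdgfrβ-KO mice, a log2 difference of -0.01 (interval -0.56 to 0.54), which turned to 0.21 without replicate 4 of the Pdgfrβ-KO mice. Il13 was 9, 15, 22 and 21 in controls and 13, 11, 8 and 9 in Pdgfrβ-KO mice (log2 -0.61, SE 0.37, adjusted p = 0.320), on 7 to 9 estimated reads per Pdgfrβ-KO library. Il5 was 0 in 3 Pdgfrβ-KO libraries and 3 in the other, at or under 3 counts throughout. A difference in Il5 was therefore not detectable at this depth, and the interval of Il13 spanned -1.42 to 0.21.

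Of 14 interferon-induced genes and factors, 2 rose and 2 fell with Pdgfrβ-KO, beside 4.96% and 4.46% of all genes tested. Oas1a (log2 0.93, adjusted p = 0.00185 in limma) and Ifit3 (0.49, adjusted p = 0.0234), both antiviral genes, rose. Cxcl9, a chemokine induced by interferon gamma, fell by 1.24 on the log2 scale (adjusted p = 0.00242), and Irf1 fell by 0.54 (adjusted p = 0.0236).

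Genes upstream and downstream of ST2 were counted with the same tests. Of the 13 genes of IL-33 receptor signalling, 1 rose and 1 fell with age, beside 11.3% and 11.4% of all genes tested. Irak3, a brake on signalling from receptors of this family, was 453 to 603 in 2-month and 693 to 849 in 12-month controls (log2 0.51, SE 0.11, adjusted p = 0.00687). Il1rap, the chain that pairs with ST2, fell by 0.42 on the log2 scale (adjusted p = 0.0266). With Pdgfrβ-KO 0 of the 13 passed in limma and 0 had an unadjusted p under 0.05. Tnfaip3 and Nfkb1, with the most normalized counts per gene of the list (not per kb), had log2 differences of 0.02 and -0.11 there.

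Other genes of ILC2 and innate lymphoid identity moved in both directions with age, with 2 higher and 5 lower of 16 tested. Over all genes tested 11.3% were higher, about the share of this list, and 11.4% lower. Crlf2, the receptor chain for the alarmin TSLP, was 674 to 864 in 2-month and 1418 to 2064 in 12-month controls, and it rose by 1.24 (log2, SE 0.12, adjusted p = 4.95e-05). Cd200r1 rose by 0.76 (adjusted p = 0.00804). Gfi1, a repressor that ILC2s need to keep Gata3 and the IL-33 receptor expressed, was 446 to 621 in 2-month and 166 to 258 in 12-month controls, and it fell by 1.23 on the log2 scale (SE 0.15, adjusted p = 0.000212). Bcl11b, Tcf7, Tox and Ets1, factors that T cells share with ILC2s, also fell. With Pdgfrβ-KO 0 were higher and 1, Nfil3, was lower, beside 4.96% and 4.46% of all genes tested. Most of these genes are also made by T or myeloid cells.

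Among other ligands that act on ILC2s, 1 of 8 tested rose with age (11.3% of all genes did). This was Tslp, an alarmin of stromal and epithelial cells, at 24 to 46 in 2-month and 43 to 78 in 12-month controls (log2 0.83, SE 0.26, adjusted p = 0.0407). With Pdgfrβ-KO 0 of 8 passed in limma and 1 had an unadjusted p under 0.05. Il25 and Nmu, which act on ILC2s in mucosal tissue, were at 0 to 3 and 0 to 1 in the 12 libraries. Of the other type 2 cytokines, their receptors and Stat6, 2 of 14 tested rose with age, Penk and Csf2, and 3 fell, where 11.3% and 11.4% of all genes did. Penk, the precursor of the enkephalin peptides that ILC2s release in fat, was 564 to 721 in 2-month and 1166 to 1609 in 12-month controls (log2 1.07, SE 0.12, adjusted p = 0.000111). Csf2, a growth factor of myeloid cells, was 12 to 16 and then 20 to 58 (log2 1.20, adjusted p = 0.0240). Il6, Csf2rb and Il31ra fell by 0.68, 0.62 and 1.05 on the log2 scale. With Pdgfrβ-KO 0 of these 14 passed in limma, and 2 had an unadjusted p under 0.05. Fibroblasts also make Penk, and 11 of 16 fibroblastic progenitor genes rose with age, beside 11.3% of all genes tested. The part of fibroblasts in the rise of Penk was not tested.

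Genes tied to the response to type 2 cytokines were counted last. With age 5 of 14 tested genes linked to macrophages and eosinophils under type 2 signals rose and 0 fell. Over all genes tested 11.3% rose and 11.4% fell. Among those that rose were Ccl11, the eosinophil attractant eotaxin (log2 1.51, SE 0.15, adjusted p = 5.57e-05), and Retnla (log2 1.60, SE 0.22, adjusted p = 0.000547). Clec10a, Mgl2 and Prg2 rose by 1.13, 0.85 and 0.78 on the log2 scale. Which cells of the mixed fraction made Ccl11 was not tested. With Pdgfrβ-KO 4 rose and 1 fell, beside 4.96% and 4.46% of all genes tested. Counted by sign alone, 8 of the 14 were up and 6 down. Of the 5 genes that rose with age, Clec10a and Mgl2 rose here too. Retnla, Ccl11 and Prg2 were among those down and did not pass (log2 -0.64, -0.34 and -0.57, adjusted p = 0.278, 0.157 and 0.230 in limma). Mrc1, the mannose receptor of tissue macrophages, was 2836 to 4408 in controls and 7247 to 9984 in Pdgfrβ-KO mice, and rose by 1.39 (log2, SE 0.16, adjusted p = 0.000667). Mgl2, Clec10a and Chil3 rose by 1.56, 1.45 and 2.72 on the log2 scale. Ear2, an eosinophil ribonuclease, fell by 1.18 on the log2 scale (adjusted p = 0.00705). Epx, the eosinophil peroxidase, was at 0 to 4 in the 12 libraries. The summed level of 8 general macrophage genes moved with these lists. It was 13588 to 19752 in 2-month controls, 28934 to 41788 in 12-month controls and 58084 to 99562 in Pdgfrβ-KO mice. In each comparison 7 of 8 were higher, beside 11.3% of all genes tested with age and 4.96% with Pdgfrβ-KO. More macrophages and more of these transcripts per macrophage cannot be told apart.

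**Figure D4:**
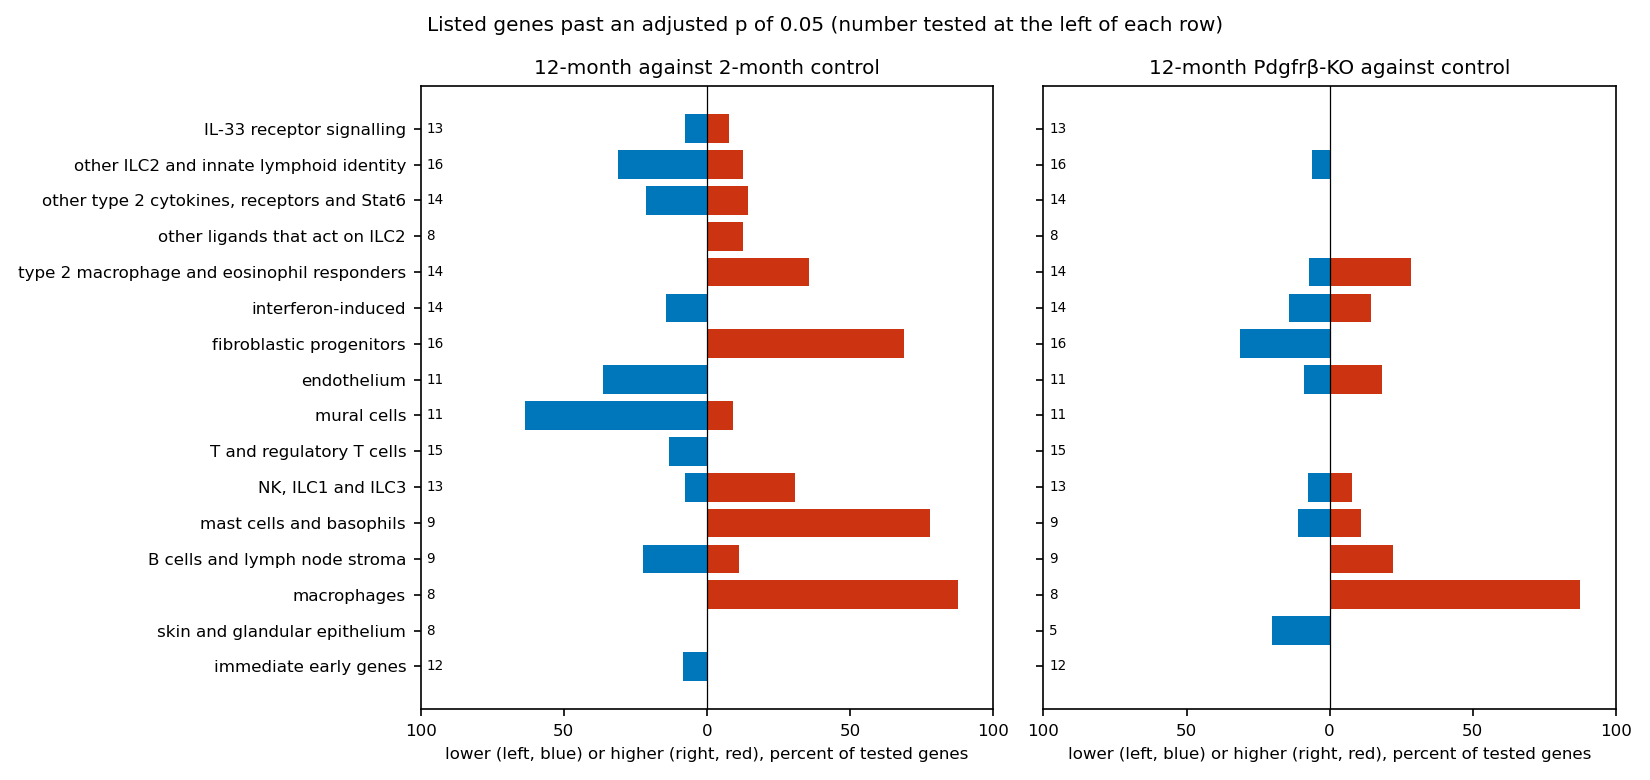
Percent of tested genes of each list that passed an adjusted p of 0.05 in limma as higher (right) or lower (left), with age and with Pdgfrβ-KO, and the number tested at the left of each row. Macrophage genes stand out with 7 of 8 higher in each comparison, while IL-33 receptor signalling has 1 higher and 1 lower of 13 with age and 0 with Pdgfrβ-KO. Over all genes tested 11.3% were higher and 11.4% lower with age, and 4.96% and 4.46% with Pdgfrβ-KO. In the row of NK, ILC1 and ILC3 the bar lower with age and the bar higher with Pdgfrβ-KO are Il22 alone, which passed the filter only through the group where it was high.

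**Figure D5:**
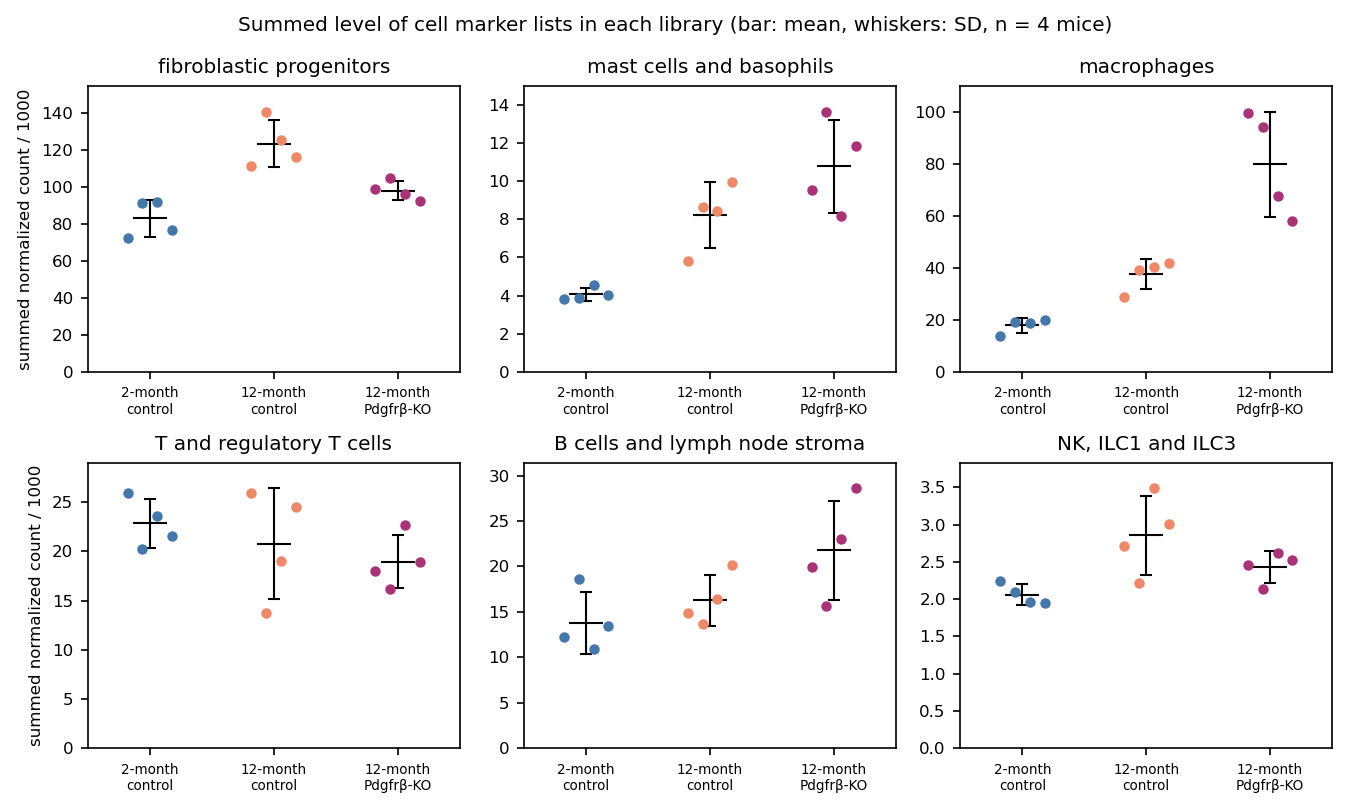
Summed normalized count, divided by 1000 on an axis from 0, of 6 marker lists in each library, by group, with mean and SD (n = 4 mice). Macrophage genes rise from group to group without overlap, mast cell genes separate the ages, and the T cell sums overlap among the 3 groups.

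Levels of Il33, Il1rl1 and Gata3 were also set against 12078 genes over the 12 libraries, as a description with no test, since these libraries share groups and depth. The genes most like Il33 were Nsun3 (Pearson r = 0.923), Sh3bp2 (0.915), Il1r2 (0.906), Coa5 (0.905) and Erg28 (0.897). Within groups, after the mean of each group was removed, these r were 0.858, 0.780, 0.719, 0.757 and 0.747. Those most like Il1rl1 were Rbm47 (0.935), Naaa, Apool, Rad51b and Fgd4 (0.919), and those most like Gata3 were Pknox1 (0.953), Nup50, Lef1, Stk38 and Usp7 (0.941). Il33 and its receptor Il1rl1 had r = 0.647 over the 12 libraries and 0.114 within groups, and Il33 and Gata3 had -0.679 and 0.148.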

How the data were processed

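RNA sequencing of 12 SVF libraries, 1 per mouse, was analysed. According to the methods and the submitters' processing notes, polyadenylated RNA was sequenced with a directional kit, reads were trimmed with Trim Galore 0.6.0 and cutadapt, checked with FastQC and mapped to GRCm38 with STAR 2.7.0e. Each deposited value is a score: a count divided by the DESeq2 1.26.0 size factor and rounded to a whole number by the authors. The gene counter was not given in the sources used here. The 12-month control values were equal in both tables. Lines without a gene (4) and empty columns (5) were left out.

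A gene entered a comparison when 4 or more of its 8 libraries reached 10, and was tested on log2(value + 1), two-sided, with limma 3.58.1 (trend and robust) in R 4.3.3 and Benjamini-Hochberg adjustment over all genes tested, at 0.05. Fold changes are on this scale, which understates those of low genes. For Il33 alone, all 70 regroupings were enumerated in an exact permutation test. Size factors were estimated from the steps in low values. That of Pdgfrβ-KO replicate 4 (1.018) may be 2 times as large, and its counts with it. Exon lengths were unions from GENCODE vM21. Tables and plots came from pandas 2.3.3, scipy 1.17.1, numpy 2.4.6 and matplotlib 3.10.9 under Python 3.11.15, and the test was tried on simulated data.

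The 10 genes and 17 lists of other genes were chosen with earlier results of these data known, and 2 other genes are not reported here. Named were the 10 genes, Pdgfrb, up to 4 genes per list with the smallest p and up to 2 abundant ones that did not pass. The 5 genes most like Il33, Il1rl1 and Gata3 were also named, as were some, not all, members of counts of 5 or fewer. Others, such as Nmur1, Ptgdr2, Cd3e, Foxp3, Id2, Pdgfra, Il25, Nmu, Msln, Upk3b, Krt5, Krt14 and Epx, were chosen after their values were seen. Alternatives changed the pseudocount, filter, scaling, estimation, weights, fitted libraries and replicate block, and left out each library in turn.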

Additional observations from a re-analysis of the deposited data

Results flagged for a closer look

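In 6 of 30 groups of 4 libraries, 1 library stood far from the other 3 by Dixon's 95% criterion for the gap over the range, which flags about 1 group in 20 by chance. Il1rl1 was 627 in Pdgfrβ-KO replicate 1, with 364 next. Areg was 55 in Pdgfrβ-KO replicate 4, with the highest of the others at 106. Klrg1 was 95 in replicate 3 of the 12-month controls, with 48 next. The other 3 were Il5, with a highest value of 2 in 2-month controls, 3 in 12-month controls and 3 in Pdgfrβ-KO mice, where the gap is 1 to 3 normalized counts.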

How the results depend on the processing

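Over 18 alternatives, Il1rl1 with age and Rora with Pdgfrβ-KO passed in each. With age, 1 gene was higher (1 to 2 without 1 library) and 1 lower (0 to 1 without 1 library, 0 in limma without trend and robust estimation). Listed genes called were 42 higher and 28 lower, with 16 to 29 lower without 1 library (16 without 2-month replicate 4). With Pdgfrβ-KO, 0 of the 10 genes were higher and 1 lower. All 12 libraries in 1 fit called 2 lower (Gata3 added, adjusted p = 0.0461) and 24 listed genes lower, against 13. The permutation p of Il33 with Pdgfrβ-KO was 0.0286 to 0.0857 without 1 library, and it missed 0.05 without 12-month control replicate 1 or 2 (0.0857) or Pdgfrβ-KO replicate 3 or 4 (0.0571). In these cases the groups still did not overlap, and the groups left were unequal in size.

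Same-numbered libraries were not taken as pairs. Their correlations were -0.216 to 0.157 with age and -0.0175 to 0.375 with Pdgfrβ-KO. The best partner had the same number only for replicate 1 with age and replicate 2 with Pdgfrβ-KO. So few libraries cannot exclude a structure shared by replicate number. With the replicate block, Pdgfrβ-KO calls went from 1539 to 2380 over all genes, from 19 to 31 listed genes higher and from 13 to 28 lower. It called 1 of the 10 genes higher (Il33, adjusted p = 0.0235) and 2 lower (Rora, and Gata3 at 0.0439). With age it moved all calls from 3727 to 3116.

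The direction turned for genes that did not pass. With age, Il7r ran from -0.32 to 0.076 (without 12-month replicate 2) and Klrg1 from -0.052 (without 12-month replicate 3) to 0.35. With Pdgfrβ-KO, Areg ran from -0.12 to 0.21 (above 0 without control or Pdgfrβ-KO replicate 4), Icos from -0.17 to 0.067 (above 0 without control replicate 3 or 4 or Pdgfrβ-KO replicate 2) and Klrg1 from -0.28 to 0.12 (above 0 without control replicate 3). Il5 was not tested, and Il13 had no value in 5 of the alternatives with age and 1 with Pdgfrβ-KO. Without 1 library, all calls were 2356 to 3961 with age and 859 to 1878 with Pdgfrβ-KO. Depth limited Il5 and Il13.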

Other observations

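Other lists were read in the same fits, where 11.3% of all genes tested were higher and 11.4% lower with age. With age, contractile genes of mural cells fell, with 1 higher and 7 lower of 11 tested. Myh11, the smooth muscle myosin, was 12356 to 14963 in 2-month and 5285 to 9226 in 12-month controls (log2 -1.04, SE 0.15, adjusted p = 0.000628 in limma), while Rgs5, a pericyte marker, rose by 0.74. Endothelial genes had 0 higher and 4 lower of 11, among them Vwf (log2 -1.03, adjusted p = 0.00224). Genes of other innate lymphocytes (NK cells, ILC1 and ILC3) had 4 higher of 13, and the 1 gene counted lower was Il22. Klrb1c, the NK cell receptor NK1.1, was 9 to 12 in 2-month and 35 to 66 in 12-month controls, and Klrk1, the activating receptor NKG2D, rose by 1.29 (log2, SE 0.18, adjusted p = 0.000565). Il22, a cytokine of ILC3s, was 10 to 21 in 2-month controls, 4 to 5 in 12-month controls and 10 to 24 in Pdgfrβ-KO mice. It entered each test only through the group where it was high, so its calls carry no weight. Genes of B cells and lymph node stroma had 1 higher (Cr2) and 2 lower (Madcam1 and Glycam1) of 9, and interferon genes 0 higher and 2 lower (Isg15 and Stat2) of 14.

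Over all genes tested with Pdgfrβ-KO, 4.96% were higher and 4.46% lower. In the list of 13 genes of NK cells, ILC1 and ILC3, Klrk1 fell by 0.85 on the log2 scale (SE 0.19, adjusted p = 0.0203 in limma). Of the other genes in that list only Il22 was counted. Of 9 mast cell and basophil genes Hdc, the histamine-forming enzyme, rose by 0.58 and Kit, the stem cell factor receptor, fell by 0.69. Mural genes had 0 of 11 called in limma, and 6 with an unadjusted p under 0.05. Epithelial genes had 0 of 8 called with age (0 unadjusted) and 1, Krt8, lower of 5 with Pdgfrβ-KO. Immediate early genes, which tissue digestion is known to induce, summed to 323007 to 485429 in the 12 libraries, with 0 higher and 1 lower (Nr4a1) of 12 with age and 0 of 12 in limma with Pdgfrβ-KO (4 unadjusted).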
